A study of Rattus norvegicus with 4 samples.

Results

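The genes described here are 7 rat genes that prepare peptides for display on MHC class I molecules: B2m, Tap1, Tap2, Tapbp, Psmb8, Psmb9 and Psmb10. They were found as the probes whose accession maps to these genes, and each had 1 probe, printed in 2 spots per array. They are 7 of the 22821 genes tested. RNA came from the spinal dorsal horn, the part of the cord where sensory fibres end. It was taken on day 10 from male rats, 6 weeks old, given either oxaliplatin, a platinum drug against cancer known for a painful neuropathy, or vehicle. There were 2 oxaliplatin and 2 vehicle arrays, each an Agilent 2-colour array on which, per the labels, Cy5 held RNA of the treated rats and Cy3 RNA of untreated male rats of the same age. The strain, the dose and the number of rats behind an array are not given in the sources used here, so p-values measure the spread between arrays, which may be technical. No dyes were swapped and the protocol text describes Cy3 labelling only, so results are given per channel and as Cy5 over Cy3.

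MHC class I molecules show short peptides from inside a cell to CD8 T cells, and a cell that displays foreign or altered peptides can be killed. The proteasome cuts proteins into peptides, and interferons exchange its standard catalytic subunits for the immunoproteasome subunits Psmb8, Psmb9 and Psmb10. Tap1 and Tap2 form the transporter that carries the peptides into the endoplasmic reticulum, Tapbp (tapasin) holds the transporter beside the empty class I molecule, and B2m is the light chain of every class I molecule. In the nervous system, microglia and endothelium are known to carry class I molecules, and neurons carry little until they are induced.

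The promoters of these genes are known targets of interferon signalling, and their sequences are shown because the response to interferon is what most of these genes are known to share. RefSeq promoter windows of the GRCr8 assembly, from 250 bases before to 50 bases after the transcript start, were found for all 7 genes. The core of the interferon-stimulated response element, searched as GAAA, 2 bases of any kind and GAAA on either strand, stood in the windows of 6 of the 7 members and in 3.92% of all 33469 windows. The stretches below are 60 bases long, 5′ to 3′ on the strand of the gene, with the matches in capitals. They lie at chr3:129549155-129549214 (plus strand) for B2m, chr20:4668630-4668689 (minus) for Tap1, chr20:4652303-4652362 (minus) for Tap2, chr20:4967868-4967927 (minus) for Tapbp, chr20:4657022-4657081 (minus) for Psmb8 and chr19:50743283-50743342 (minus) for Psmb10.
B2m: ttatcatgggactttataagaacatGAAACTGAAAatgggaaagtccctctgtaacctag
Tap1: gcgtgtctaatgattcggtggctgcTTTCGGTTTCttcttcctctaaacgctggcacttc
Tap2: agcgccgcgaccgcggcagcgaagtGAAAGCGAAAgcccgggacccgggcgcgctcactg
Tapbp: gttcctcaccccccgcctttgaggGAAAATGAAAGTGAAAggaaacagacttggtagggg
Psmb8: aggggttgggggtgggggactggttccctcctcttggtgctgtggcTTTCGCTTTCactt
Psmb10: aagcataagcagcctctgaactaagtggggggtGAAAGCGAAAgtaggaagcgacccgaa

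The matches of Tap1 and Psmb8 are on the strand opposite to the gene and read as the reverse complement. The stretch of Tapbp holds 2 overlapping matches, and the window of Psmb10 holds a further match upstream of the stretch shown. The match ended 141 bases before the start of B2m and 112 bases before that of Tap1, but 32, 11 and 8 bases before those of Tap2, Tapbp and Psmb10, and in Psmb8 it spanned the start. The Psmb9 window held no match to these letters. The match of Tap1 lies upstream of that window, between the starts of Tap1 and Psmb9. Letters of an NF-kB site, searched as GGGA, 4 bases of any kind and CC on either strand, stood in the windows of B2m, Tap1 and Tapbp (3 of 7 members, 19.3% of all windows). Those of a gamma-activated site, TTCNNNGAA, stood in that of Psmb8 alone among the members (8.87% of all windows). The core of the cyclic AMP response element, TGACG on either strand, stood in those of B2m and Psmb9 (21.2% of all windows). TATAAA on either strand stood in that of B2m (14.2%). There it read as the reverse complement TTTATA, at bases -163 to -158 from the start. In B2m the NF-kB letters matched at 2 overlapping places, and a match is a description of letters, not a binding site. Tap2, Psmb8, Tap1 and Psmb9 follow each other directly on chromosome 20, within the MHC, and the windows of Tap1 and Psmb9, which lie head to head, share 44 bases. Tapbp also lies on chromosome 20, B2m on chromosome 3 and Psmb10 on chromosome 19. Of the other genes tested that have a window, 358 held the interferon letters and had a median range over the 4 arrays of 0.51 in log2 Cy3 signal, against 0.46 for the 11004 genes without a match.

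Each array carried 62976 spots. The members' probes were well above background in both channels on all 4 arrays. The median Cy3 signal was 283.5 on oxaliplatin array 2, against 494 to 564 on the other arrays, while the median Cy5 signal lay between 913 and 1023.5 on all 4. Ratios of all genes correlated between arrays with Pearson's r from 0.75 to 0.93. The oxaliplatin arrays lay on 1 slide and the vehicle arrays on another, so slide and group cannot be told apart. The oxaliplatin arrays shared 1 scan, while each vehicle array had its own. Defining genes of spinal cord neurons and glia were well above background in both channels on all arrays (19 of 19 measured). Genes of Schwann cells and sensory ganglion, cells that lie outside the cord, had median ratios (log2 Cy5/Cy3) of 2.64 to 2.80 on the oxaliplatin arrays and of 2.64 to 2.81 on the vehicle arrays, so this list differed between the channels alike in both groups. In tissue RNA, fewer cells of a type and less RNA per cell cannot be told apart.

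B2m, the light chain shared by the class I molecules, had log2 Cy5 signals of 15.10 and 15.38 on the oxaliplatin arrays, against 15.12 and 14.94 on the vehicle arrays. Its log2 Cy3 signals were 15.44 and 15.02 on the oxaliplatin arrays, against 14.53 and 14.90 on the vehicle arrays. The log2 Cy5/Cy3 ratio was thus -0.34 and 0.35 on the oxaliplatin arrays, against 0.59 and 0.05 on the vehicle arrays. The Cy3 signals of both oxaliplatin arrays were above those of both vehicle arrays, by 0.52 ± 0.22 on average (SE; limma, adjusted p = 0.252), but the Cy5 signals and the ratios overlapped between groups. The ratio difference of oxaliplatin minus vehicle was -0.31 ± 0.26 (SE; limma, adjusted p = 0.611), and the oxaliplatin arrays differed from each other by 0.70.

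Tap1 encodes the partner of Tap2 in the peptide transporter. Its log2 Cy3 signal was 7.67 and 7.10 on the oxaliplatin arrays, against 7.62 and 8.61 on the vehicle arrays. In Cy5 it was 7.46 and 7.33 on the oxaliplatin arrays, against 7.33 and 7.51 on the vehicle arrays. Cy3 was lowest on oxaliplatin array 2 and highest on vehicle array 2, with a range over the 4 arrays of 1.51, against 0.19 in Cy5. With the processed signal of the scanner software the ranges were 2.78 in Cy3 and 0.60 in Cy5, and the Cy5 difference between the groups was -0.43, against -0.02 above. The ratio was -0.21 and 0.23 on the oxaliplatin arrays, against -0.29 and -1.10 on the vehicle arrays, and the groups did not overlap. The difference was 0.70 ± 0.28 (SE; 95% interval 0.05 to 1.36) and did not pass (limma, adjusted p = 0.324). The raw Cy3 median pixel signal of this probe was 147.5 and 70.5 on the oxaliplatin arrays and 166.5 and 295.5 on the vehicle arrays, over local backgrounds of 40.5 to 47, so the low values had little signal behind them. The difference was 1.06 with the log ratio of the scanner software, 0.38 with median centring in place of loess and 0.30 without vehicle array 2.

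Tap2, the partner of Tap1, had log2 Cy5 signals within 0.09 of each other (0.45 with loess alone, before Aquantile), with 9.67 and 9.69 on the oxaliplatin arrays and 9.63 and 9.72 on the vehicle arrays. Its log2 Cy3 signal was 10.60 and 10.52 on the oxaliplatin arrays and 10.24 and 10.72 on the vehicle arrays. The ratio was below 0 on every array, at -0.92 and -0.83 on the oxaliplatin arrays and -0.61 and -0.999 on the vehicle arrays. The vehicle arrays lay on either side of the oxaliplatin arrays, and the difference was -0.07 ± 0.16 (SE; 95% interval -0.44 to 0.30; limma, adjusted p = 0.858). The partners of the transporter thus had unlike ratios on the oxaliplatin arrays, where those of Tap1 lay on either side of 0. On the vehicle arrays their mean ratios were closer, at -0.70 for Tap1 and -0.80 for Tap2. The faint Cy3 signal of Tap1 limits both comparisons.

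Tapbp, which encodes tapasin, had a ratio of -0.36 and 0.13 on the oxaliplatin arrays, against 0.03 and -0.54 on the vehicle arrays. Its log2 Cy5 signal was 9.37 and 9.30 on the oxaliplatin arrays, against 9.55 and 9.73 on the vehicle arrays. In Cy3 it was 9.73 and 9.18 on the oxaliplatin arrays, against 9.52 and 10.27 on the vehicle arrays. Cy5 was lower on both oxaliplatin arrays than on either vehicle array, with a difference of -0.30 ± 0.09 (SE; limma, adjusted p = 0.217). The ratios overlapped and differed by 0.14 ± 0.23 (SE; limma, adjusted p = 0.806).

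The 3 immunoproteasome subunits did not share a level of spread. Psmb8, also known as LMP7, had the widest range of the 3 in Cy3, with log2 signals of 10.24 and 8.86 on the oxaliplatin arrays, against 9.57 and 10.28 on the vehicle arrays. Its Cy5 signals were 9.19 and 9.11 on the oxaliplatin arrays, against 9.38 and 9.53 on the vehicle arrays. As for tapasin, Cy5 was lower on both oxaliplatin arrays, with a difference of -0.31 ± 0.09 (SE; limma, adjusted p = 0.209). The ratio was -1.05 and 0.25 on the oxaliplatin arrays, against -0.19 and -0.75 on the vehicle arrays. The oxaliplatin arrays enclosed both vehicle arrays, and the group difference was 0.07 ± 0.40 (SE; 95% interval -0.89 to 1.03; limma, adjusted p = 0.954).

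Psmb9, or LMP2, whose gene lies head to head with Tap1, showed the same order of arrays as Psmb8 in the ratio. Its log2 Cy3 signals were 11.49 and 10.19 on the oxaliplatin arrays, against 10.44 and 11.38 on the vehicle arrays. Its Cy5 signals were 10.83 and 10.89 on the oxaliplatin arrays, against 10.89 and 11.17 on the vehicle arrays. The ratio was -0.66 and 0.70 on the oxaliplatin arrays, against 0.45 and -0.22 on the vehicle arrays. Here too the oxaliplatin arrays enclosed the vehicle arrays, with a difference of -0.10 ± 0.43 (SE; 95% interval -1.12 to 0.92; limma, adjusted p = 0.937).

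Psmb10, or MECL-1, was steadier. Its log2 Cy5 signals were 14.55 and 14.56 on the oxaliplatin arrays, against 14.58 and 14.37 on the vehicle arrays. Its Cy3 signals were 14.26 and 14.04 on the oxaliplatin arrays, against 13.86 and 13.70 on the vehicle arrays. The ratio was above 0 on all 4 arrays, at 0.29 and 0.52 on the oxaliplatin arrays, against 0.73 and 0.68 on the vehicle arrays. Its ratios were lower on both oxaliplatin arrays, with a difference of -0.30 ± 0.13 (SE; limma, adjusted p = 0.349), and its Cy3 signals higher by 0.37 ± 0.16 (SE; limma, adjusted p = 0.264).

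**Figure D1:**
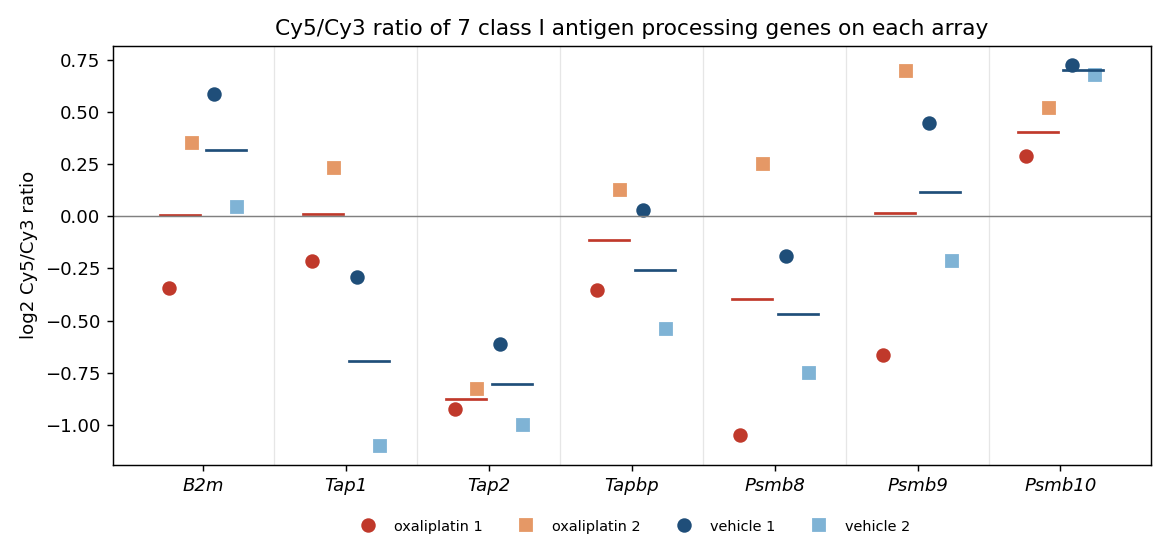
Log2 Cy5/Cy3 ratio (vertical axis) of each gene on the 2 oxaliplatin arrays (red and orange) and the 2 vehicle arrays (dark and light blue), with short lines at the group means. Psmb8 and Psmb9 were 1.30 and 1.36 apart between the oxaliplatin arrays, while Tap2 stayed below 0 and Psmb10 above 0 on all 4 arrays.

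None of the members passed in the comparison of oxaliplatin with vehicle, whether in the ratio, in Cy5 or in Cy3 (0 of 7 each, limma with Benjamini-Hochberg adjustment over all genes). The same held for all genes: 0% of the 22821 passed in each of the 3 comparisons. At an unadjusted p under 0.05, 1 member differed in the ratio (Tap1; 3342 genes, 14.6%), 2 in Cy5 (Tapbp and Psmb8; 4674 genes, 20.5%) and 0 in Cy3 (4761 genes, 20.9%). Of the 7 members, 1 had ratios higher on both oxaliplatin arrays (Tap1; 27% of all genes) and 1 lower on both (Psmb10; 22.2%). In Cy5 the groups did not overlap for 2 members, both lower on the oxaliplatin arrays (30.2% of all genes), and in Cy3 for 2, both higher (B2m and Psmb10; 26.9%). No member had Cy5 signals higher on both oxaliplatin arrays (29.6% of all genes) or Cy3 signals lower on both (31.3%). With 7 members, 1 gene is 14.3% of them. The median ratio difference was -0.07 over the members and 0.01 over all genes.

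**Figure D2:**
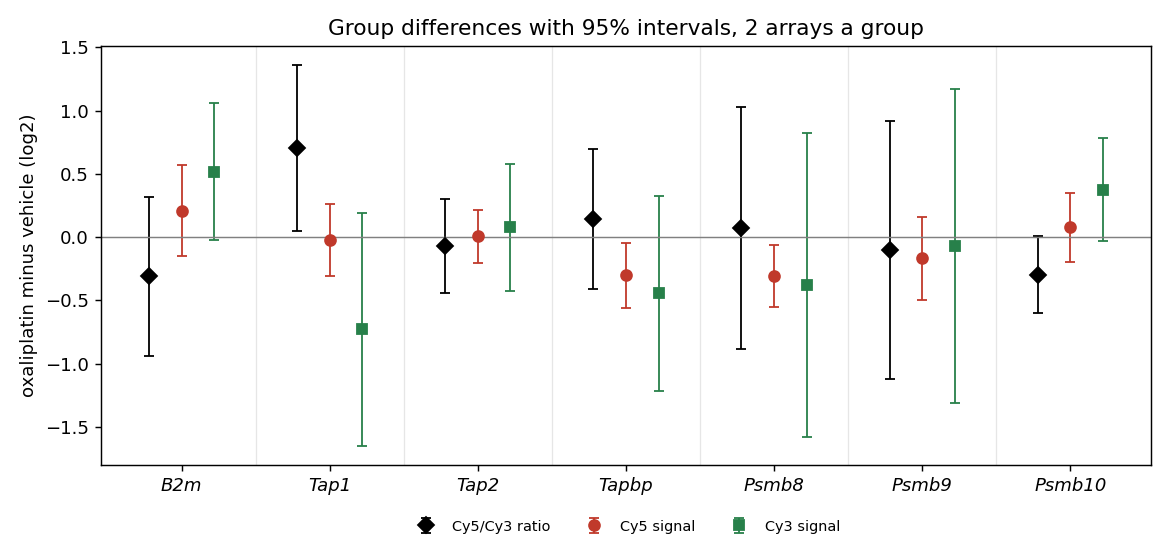
Oxaliplatin minus vehicle (log2, vertical axis) for each gene in the Cy5/Cy3 ratio (black), the Cy5 signal (red) and the Cy3 signal (green), with 95% intervals from the limma fits over 4 arrays. The intervals of Tap1 in the ratio and of Tapbp and Psmb8 in Cy5 leave out 0 before adjustment, and none passes after it.

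For most of these genes the gap between arrays of 1 group was larger than the difference between the groups. The ratio difference was below both within-group gaps for 5 of the 7 members, which was so for 30.4% of all genes. The median gap between the oxaliplatin arrays was 0.48 for the members and 0.16 for all genes, and between the vehicle arrays 0.56 for the members and 0.12 for all genes. The members' duplicate spots differed by less, with an SD of the log2 ratio from 0.003 to 0.18 and a median of 0.05. The ratio was highest on oxaliplatin array 2 for 4 members and on vehicle array 1 for 3, and lowest on oxaliplatin array 1 for 4 and on vehicle array 2 for 3. So in the members' median ratio each group held an array with high and an array with low values. This does not describe Tap1 and Psmb10, whose ratios did not overlap between the groups.

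The gaps came with the Cy3 channel. Cy3 signals varied more than Cy5 signals in 7 of 7 members, as they did in 75.3% of all genes. The median range over the 4 arrays was 1.09 in log2 Cy3 signal for the members, against 0.48 for all genes, but 0.34 in log2 Cy5 signal, against 0.28 for all genes. In Cy3, the ranges of Tap1, Tapbp, Psmb8 and Psmb9 were above the 90th percentile of all genes (1.08), while in Cy5 no member was above it (0.78). Cy3 was highest on oxaliplatin array 1 for 3 members and on vehicle array 2 for 4, and lowest on oxaliplatin array 2 for 4, the array with the lowest median Cy3 signal. With quantile normalisation within each channel the members' median ranges were 1.06 in Cy3 and 0.35 in Cy5. With the processed signal of the scanner software they were 1.29 in Cy3 and 0.49 in Cy5, against 0.71 and 0.40 for all genes, and then 1 member was above the 90th percentile in Cy3. By the labels the Cy3 channel held RNA of untreated rats on all arrays, and the part of an array's Cy3 signal level in this spread was not tested.

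**Figure D3:**
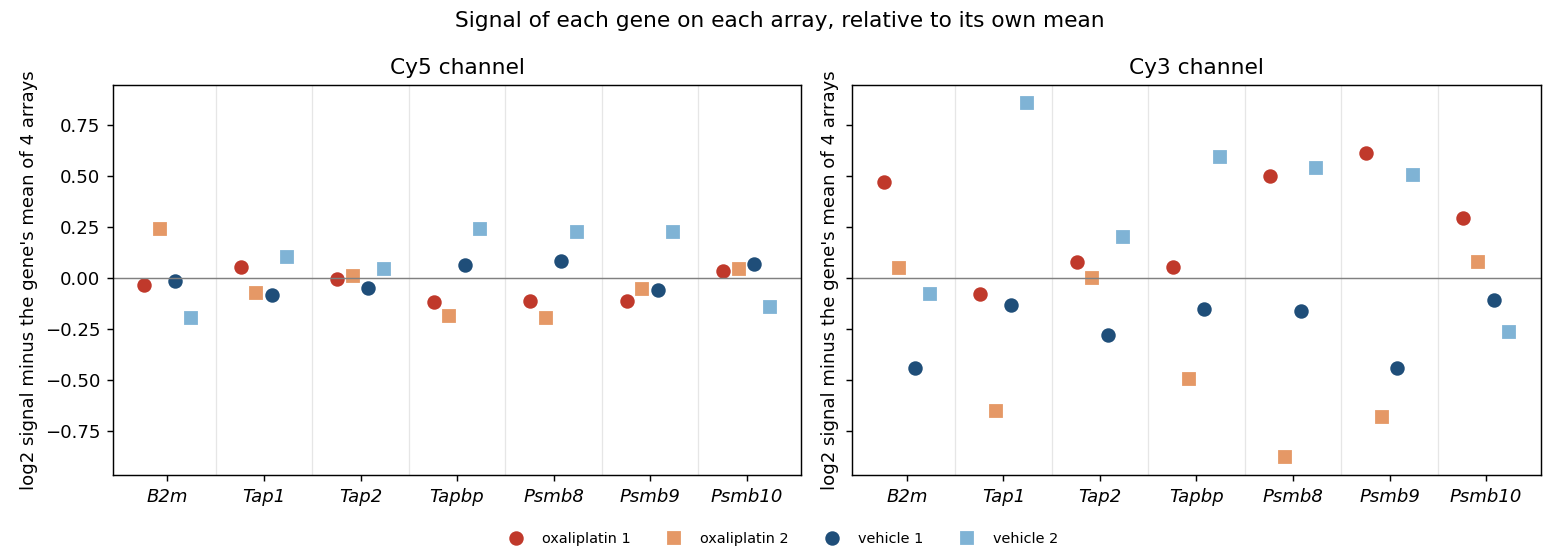
Log2 signal of each gene on each array minus the mean of that gene over the 4 arrays, in Cy5 (left) and Cy3 (right), on the same vertical scale. Cy5 points of a gene lie within 0.44 of each other, while Cy3 points of Tap1, Psmb8 and Psmb9 span 1.51, 1.42 and 1.30.

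**Figure D4:**
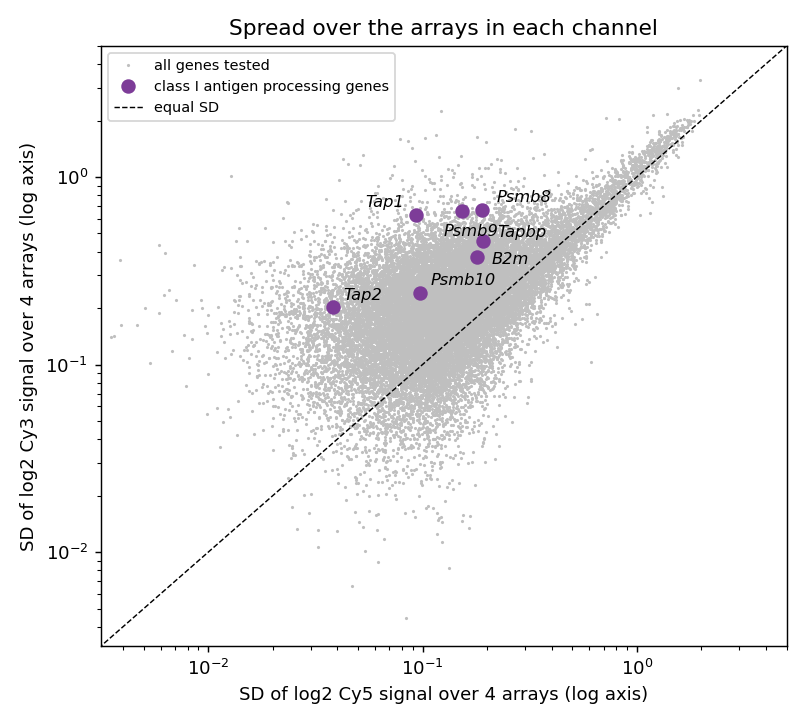
SD over the 4 arrays of log2 Cy5 signal (horizontal, log axis) and log2 Cy3 signal (vertical, log axis) for all 22821 genes tested (grey) and the 7 members (purple), with a dashed line at equal SD. All 7 members lie above the line, as do 75.3% of all genes.

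Set against 0, the ratio compares the channels within a group. As no dyes were swapped, the dye and the origin of the RNA cannot be told apart in it. On the oxaliplatin arrays 2 of 7 members passed (limma, adjusted p under 0.05; 34.8% of all genes). Tap2 was lower in Cy5 than in Cy3, with a mean ratio of -0.88 ± 0.11 (SE; adjusted p = 0.00159), and Psmb10 higher, with 0.41 ± 0.09 (SE; adjusted p = 0.0152). On the vehicle arrays 3 of 7 passed (45.5% of all genes). Tap2 was again lower, with -0.80 ± 0.11 (SE; adjusted p = 0.00157), and Psmb10 higher, with 0.70 ± 0.09 (SE; adjusted p = 0.00129). Tap1 was lower too, with -0.70 ± 0.19 (SE; adjusted p = 0.0253), a call lost with the scanner software's log ratio (adjusted p = 0.0816) and without vehicle array 2 (-0.29, adjusted p = 0.296). The call of Psmb10 on the oxaliplatin arrays was lost without oxaliplatin array 2 (adjusted p = 0.0785). B2m, a very bright spot, had mean ratios of 0.01 on the oxaliplatin arrays and 0.32 on the vehicle arrays. With median centring in place of loess they were 0.75 on the oxaliplatin arrays (limma, adjusted p = 0.00895) and 0.91 on the vehicle arrays (limma, adjusted p = 0.00428), and both passed. Beside these values stand the marker lists: spinal cord neuron and glia genes had median ratios of -0.86 and -0.82 on the oxaliplatin arrays and -0.85 and -0.76 on the vehicle arrays, and their part in the members' ratios was not tested.

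The list of class I heavy chains holds RT1 heavy chains, which carry the peptide together with B2m, and related molecules such as Fcgrt and Cd1d1. Its median ratios had the same order of arrays as the members' medians, an order that Tapbp alone among the members has by itself. The median ratio of the 27 measured was -0.67 and -0.07 on the oxaliplatin arrays, against -0.22 and -0.90 on the vehicle arrays, and 0 of 27 passed in the difference between groups. RT1-A1, the heavy chain with the brightest probe, had a ratio of -1.09 and -0.18 on the oxaliplatin arrays, against -0.33 and -1.10 on the vehicle arrays. Its log2 Cy3 signals were 15.33 and 14.23 on the oxaliplatin arrays, against 14.49 and 15.43 on the vehicle arrays, with Cy5 between 14.04 and 14.33 on all 4. RT1 heavy chains are close copies of each other, so a probe may bind several of them and single members are uncertain. In this list the smallest unadjusted p values belonged to Fcgrt, the receptor that carries IgG, with a difference of 0.53 ± 0.19, RT1-M4 with -0.42 ± 0.15, the lipid-presenting Cd1d1 with -0.26 ± 0.11 and Mr1 with 0.33 ± 0.19 (SE; adjusted p from 0.308 to 0.463).

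Other genes of loading and peptide trimming were steadier than the members. The median ratio of 15 was -0.12 and 0.03 on the oxaliplatin arrays, against 0.03 and -0.16 on the vehicle arrays, and 0 of 15 passed in the difference. In the ratio, 8 of 15 were higher on both oxaliplatin arrays (27% of all genes) and 2 lower on both (22.2%). In Cy5, 8 of 15 were lower on both (30.2% of all genes) and 3 higher on both (29.6%). Calr, the chaperone calreticulin of the loading complex, had ratios of 0.53 and 0.22 on the oxaliplatin arrays, against -0.52 and -0.88 on the vehicle arrays. Its difference of 1.08 ± 0.17 (SE) did not pass either (limma, adjusted p = 0.266). Pdia3, the thiol oxidoreductase ERp57 that works beside tapasin, differed by 0.07 ± 0.16. The peptidases Thop1, Nrdc and Blmh differed by 0.31 ± 0.11, 0.33 ± 0.14 and 0.28 ± 0.12 (SE; adjusted p from 0.31 to 0.341).

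The list of standard proteasome and activator genes varied little in its median, but its genes varied about as much as all genes. The median ratio of 21 stayed between -0.03 and 0.00 on all 4 arrays, and 0 of 21 passed in the difference. Their median ratio range over the arrays was 0.33, against 0.32 for all genes. Ratios of 8 were lower on both oxaliplatin arrays (22.2% of all genes) and of 4 higher (27%). In Cy5, 13 were lower on both (30.2% of all genes) and 3 higher (29.6%). Psmb5 and Psmb6, which Psmb8 and Psmb9 replace, differed by 0.03 ± 0.12 and -0.07 ± 0.11 (SE). Psmb7, which Psmb10 replaces, had ratios of -0.02 and 0.01 on the oxaliplatin arrays, against -0.71 and -0.72 on the vehicle arrays, a difference of 0.71 ± 0.11 (SE; limma, adjusted p = 0.266). That difference stood in Cy3, where the log2 signal was 12.90 and 12.86 on the oxaliplatin arrays, against 13.67 and 13.78 on the vehicle arrays. Psme1, an interferon-induced part of the PA28 activator, had the order of the members' medians, with -0.62 and 0.23 on the oxaliplatin arrays, against -0.22 and -0.63 on the vehicle arrays. Its partner Psme2 had another order, with -0.12 and -0.03 on the oxaliplatin arrays, against 0.28 and 0.08 on the vehicle arrays. The assembly factor Psmg4 differed by 0.83 ± 0.20, Psma5 by -0.30 ± 0.11 and Psme3 by 0.31 ± 0.14 (SE; adjusted p from 0.294 to 0.361).

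Genes that induce class I had median ratios within 0.05 of 0 on every array (22 measured, 0 passing in the difference). Irf1, which binds the response element shown above, had ratios of 0.65 and 0.78 on the oxaliplatin arrays, against 0.49 and 0.99 on the vehicle arrays, so the groups overlapped. Among the others, Tnfrsf1a, Nfkb1, Rela and Ifngr2 differed by -0.50 ± 0.13, 0.40 ± 0.13, 0.45 ± 0.18 and -0.27 ± 0.13 (SE; adjusted p from 0.294 to 0.379). Interferon-stimulated genes outside class I varied more than the members. The median ratio of 27 was -0.36 and 0.87 on the oxaliplatin arrays, against 0.05 and -0.46 on the vehicle arrays, and 0 of 27 passed in the difference. Their median range in Cy3 was 1.72, against 0.32 in Cy5. The ratio differences of Ifit2, Ifit3, Oasl and Ifit1 were 1.099 ± 0.31, 1.64 ± 0.54, 0.34 ± 0.11 and 0.75 ± 0.32 (SE; adjusted p from 0.294 to 0.345).

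MHC class II genes, which present peptides taken up from outside the cell, are set beside them. The ratio of Cd74, the class II chaperone, was 0.11 and 1.06 on the oxaliplatin arrays, against -1.01 and -0.88 on the vehicle arrays. That of RT1-Da was 1.24 and 1.64 on the oxaliplatin arrays, against 0.05 and 0.30 on the vehicle arrays. The groups did not overlap for 5 of 9 class II genes, all higher on the oxaliplatin arrays (27% of all genes), and 0 of 9 passed in the difference (limma, adjusted p from 0.229 to 0.294 for RT1-Bb, RT1-Da, RT1-Db1 and Cd74, named for the smallest unadjusted p). Their Cy5 signals were not higher with it: 5 of 9 were lower on both oxaliplatin arrays (30.2% of all genes) and 1 higher on both, with a median difference of -0.11. In Cy3, 8 of 9 were lower on both oxaliplatin arrays (31.3% of all genes), with a median difference of -0.47.

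Marker lists of cells that could carry class I are given beside these results. Of 17 microglia genes, 0 passed in the difference, and their median ratio was -0.51 and -0.02 on the oxaliplatin arrays, against -0.26 and -0.24 on the vehicle arrays. Their summed log2 Cy3 signal was 17.21 and 16.57 on the oxaliplatin arrays, against 16.94 and 17.09 on the vehicle arrays, and in Cy5 it lay between 16.68 and 16.80 on all 4. The members' own sums in Cy3 were 16.11 and 15.72 on the oxaliplatin arrays, against 15.39 and 15.64 on the vehicle arrays. These sums rest mostly on B2m and Psmb10, the brightest members. The members' median log2 Cy3 signal was 10.60 and 10.19 on the oxaliplatin arrays, against 10.24 and 10.72 on the vehicle arrays. The median log2 Cy3 signal of the microglia genes was 12.238 and 12.244 on the oxaliplatin arrays, against 12.466 and 12.136 on the vehicle arrays. The members' median and the microglia sum were lowest on oxaliplatin array 2. But the members' sum was lowest on vehicle array 1, and the microglia median on vehicle array 2. The part of microglia in the members' spread was not tested. Of 15 endothelium and pericyte genes, 0 passed, with a summed log2 Cy3 signal of 15.17 and 15.26 on the oxaliplatin arrays and 14.99 and 15.22 on the vehicle arrays. Of 9 lymphocyte and NK cell genes, 0 passed, with sums of 11.00 and 10.96 on the oxaliplatin arrays and 11.14 and 11.15 on the vehicle arrays. These genes were faint, with median log2 Cy3 signals from 7.17 to 7.39. Only 6 of the 9 were well above background in both channels on all arrays, and 5 more genes of the list were not kept. Haemoglobin and red cell genes, a measure of blood, had sums in Cy3 of 14.95 and 17.30 on the oxaliplatin arrays and 16.40 and 17.44 on the vehicle arrays.

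**Figure D5:**
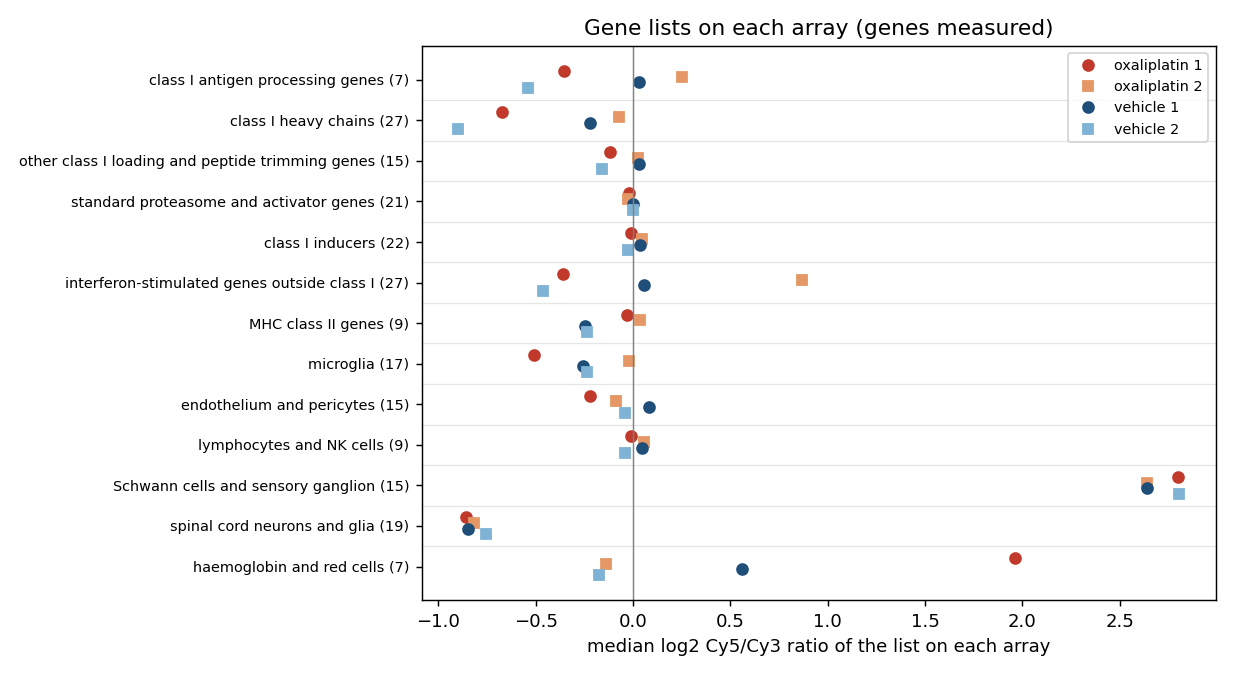
Median log2 Cy5/Cy3 ratio (horizontal axis) of each gene list on each oxaliplatin array (red and orange) and vehicle array (dark and light blue), with the number of genes measured in brackets. The class I antigen processing genes, the heavy chains and the interferon-stimulated genes have high values on oxaliplatin array 2. They have low ones on oxaliplatin array 1 and vehicle array 2. The median of the standard proteasome genes stays near 0, though single genes of that list vary.

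Among all genes with a symbol, those whose ratios over the 4 arrays, centred on their mean, came nearest to the members' mean profile were Epsti1, Ifngr1, Lrrc74a, Cd93 and Timp1. The members' mean profile was -0.32 and 0.34 on the oxaliplatin arrays, against 0.25 and -0.27 on the vehicle arrays. The root mean square gap to it was 0.05 to 0.06 for these 5 genes, over 4 arrays. Among the members themselves it ran from 0.09 for Tapbp to 0.37 for Tap1. The 5 genes had the smallest gaps among the 13940 tested genes with a symbol, members aside, so their small gaps follow from the choice. Shared regulation was not tested. Ifngr1, a chain of the interferon gamma receptor, had ratios of -0.86 and -0.12 on the oxaliplatin arrays, against -0.36 and -0.82 on the vehicle arrays. Timp1, an inhibitor of matrix proteases, had 0.57 and 1.35 on the oxaliplatin arrays, against 1.22 and 0.80 on the vehicle arrays.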

How the data were processed

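Total RNA was measured on 4 Agilent 2-colour arrays, grouped by the sample titles into 2 oxaliplatin and 2 vehicle arrays, and 0 columns stayed unmapped. The deposited scanner files give, per the file headers, median intensities of every spot and of its local background, processed intensities after background subtraction and dye normalisation, and the log10 Cy5/Cy3 ratio. Agilent Feature Extraction made them, as version 10.7.1.1 in the file headers but 8.5.1.1 in the submitters' processing notes. The deposited value table holds the same log10 ratios, with gaps of at most 0.0050 and medians of -0.00277, 0, -0.00492 and -0.00316 on oxaliplatin arrays 1 and 2 and vehicle arrays 1 and 2. The deposited spot flags hold values other than signals, marking outliers, saturation and spots well above background.

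Median signals were corrected by normexp (offset 50) and ratios normalised by loess in limma 3.58.1 under R 4.3.3, and single channels by Aquantile, which keeps each ratio. Control spots (4259 per array) and outlier spots were left out, and spots of a probe averaged. Of 30367 probes, 26002 had Cy5 well above background on at least 2 arrays. Symbols came from the accession, matched to the RefSeq table (18758 probes). The brightest probe stood for its gene. Groups were compared by lmFit and eBayes (two-sided, residual df 2), with Benjamini-Hochberg adjustment over 22821 genes and a threshold of 0.05. Precision is limited by having 4 arrays.

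The members and lists were chosen with earlier results of these data known. Nlrc5 and Erap1 are not analysed here. A gene that the naming rule picks is not reported here. Besides the members, up to 4 genes of each list with the smallest unadjusted p, 11 genes named whatever their values, the brightest heavy chain and the 5 genes nearest in profile were eligible for naming. Alternatives were other background corrections, scalings, filters and probe rules, each array left out, and the replicate number as a block.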

Additional observations from a re-analysis of the deposited data

Results flagged for a closer look

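Of 68 genes looked at, the members and genes picked mostly for a small p in their lists, 7 had the groups on opposite sides of 0, against 6.08% of all genes tested. For these 7, both oxaliplatin arrays had a Cy5/Cy3 ratio on 1 side of 0 and both vehicle arrays on the other side, and none of these differences passed after adjustment over all genes (limma, adjusted p from 0.229 to 0.401). No member was among them. The difference of oxaliplatin minus vehicle was 1.08 for Calr of the loading complex, -0.296 for the proteasome subunit Psma5 and -0.254 for the proteasome activator Psme2. It was 0.341 for the interferon-stimulated Oasl, 1.55 for RT1-Bb and 1.53 for Cd74 of MHC class II, and -0.606 for the endothelial transporter Slco1a4. Oasl had Cy5 signals well above background on 2 arrays.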

How the results depend on the processing

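Repeats under another setting, arrays left out included, turned the sign of a single member's value 32 times. In 340 repeats the value counted as the same, in 10 as stronger and in 3 as weaker. No member passed in a comparison of the groups except where named here. With the log ratio of the scanner software, mean ratios against 0 turned for B2m (-0.0043) and Psmb9 (-0.074) on the oxaliplatin arrays and for Psmb9 (-0.013) on the vehicle arrays. Under median centring instead of loess, the differences of Tap2 (0.058) and Psmb9 (0.032) and the oxaliplatin ratio of Tap1 (-0.34) turned, and 12199 genes passed against 0 on the oxaliplatin arrays, against 7940. Of the genes passing there, 54.6% had ratios above 0, but 44.6% under the scanner's own log ratio. On the vehicle arrays 51.4%, but 63.4% with median centring. The scanner software's processed signal shifted the median difference of all genes by -0.11 in Cy5 and -0.15 in Cy3 and gave Tap2 -0.11 in Cy5 and -0.018 in Cy3. In no case was the cause tested.

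Leaving out 1 array at a time left a lone array that is assumed to vary like the others. Genes passing then ran from 2 to 937 in the ratio difference (937 without oxaliplatin array 1), from 0 to 5576 in Cy5 and from 0 to 2311 in Cy3 (both highest without vehicle array 1), and from 4975 to 12114 for the vehicle ratio against 0. Members passing ran from 0 to 2 in Cy5 (Tapbp and Psmb8 without vehicle array 1) and from 0 to 1 in Cy3 (Tap1, likewise). The ratio difference ran from -0.66 to 0.037 for B2m, -0.27 to 0.12 for Tap2, -0.14 to 0.43 for Tapbp, -0.58 to 0.72 for Psmb8 and -0.78 to 0.58 for Psmb9. It kept its sign for Tap1, from 0.30 to 1.11, and for Psmb10, from -0.41 to -0.18. In Cy5 it ran from -0.12 to 0.070 for Tap1, -0.040 to 0.051 for Tap2 and -0.028 to 0.18 for Psmb10, and in Cy3 from -0.16 to 0.32 for Tap2, -1.07 to 0.31 for Psmb8 and -0.72 to 0.58 for Psmb9. Mean ratios on the oxaliplatin arrays ran from -0.34 to 0.35 for B2m, -0.21 to 0.23 for Tap1, -0.36 to 0.13 for Tapbp, -1.05 to 0.25 for Psmb8 and -0.66 to 0.70 for Psmb9, and on the vehicle arrays from -0.54 to 0.029 for Tapbp and -0.22 to 0.45 for Psmb9.

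The replicate numbers share only a number: differences between arrays 1 and 2 of the groups correlated at -0.22. With the number as a block, 3 genes and 0 members passed in the ratio difference. Crossing the pairing, chosen after seeing the data, gave 537 genes and 1 member, Tap1. The scan as a random block, also added then, gave an estimated correlation for 0 genes, so that fit was not run. Faint probes such as Tap1 rest on little Cy3 signal.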
